A study of Mus musculus with 46 samples.

Results

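The genes described here carry signals from stromal and bone-forming cells to macrophages and osteoclasts. They are 8 of the 29871 genes of the deposited table, chosen by name, and each was followed over all 46 cells. Csf1, Il34, Cxcl12 and Tnfsf11 encode ligands, Tnfrsf11b encodes a soluble decoy receptor, and Csf1r, Cxcr4 and Tnfrsf11a encode the receptors. All 8 symbols were found in the table.

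The cells came from the cochlea of C57BL/6 mice at postnatal day 10 with the genotype Dio2creERt2:Ai6. These mice are heterozygous for a Dio2 allele that carries a tamoxifen-inducible Cre recombinase, and Ai6 is a reporter that turns on a green fluorescent protein where Cre has acted. All cells share this genotype, and no group without the allele was analysed here. After a papain digest, fluorescent cells were picked singly with a suction pipette and made into libraries with the SMART-Seq v4 and ThruPLEX kits. Only 1 group is labelled and animals are not identified, so the 46 cells form 1 sample. No test was made between cells, and SDs below are over cells. Because the reporter marks descendants of cells in which Cre acted, a picked cell need not contain Dio2 mRNA itself.

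CSF1 and IL-34 are secreted proteins that activate the same receptor tyrosine kinase, CSF1R, on which macrophages and osteoclast precursors depend for survival and growth. CXCL12 is a chemokine that holds cells bearing CXCR4 close to the stroma that makes it. RANKL, the product of Tnfsf11, binds RANK, the product of Tnfrsf11a, on osteoclast precursors and drives them to become bone-resorbing osteoclasts. Osteoprotegerin, the product of Tnfrsf11b, binds RANKL and keeps it from RANK. In mice the bony capsule of the cochlea is known for very little bone remodelling, and loss of osteoprotegerin leads to resorption of that bone.

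Levels are CPM, reads per 1000000 reads of a cell. Cells were sorted by the CPM of 1 gene each: 12 cells with Ibsp, a bone matrix protein gene, at 1000 CPM or more (Ibsp-high), 9 cells with Otos, a gene of cochlear fibrocytes, at 1000 CPM or more (Otos-high), 4 cells with C1qb, a complement gene of macrophages, at 500 CPM or more (C1qb-high), and the other 21 cells (the rest). No cell passed more than 1 of these limits. The lowest cell inside and the highest cell outside lay at 7618 and 107 CPM for Ibsp, at 1213 and 112 CPM for Otos, and at 3048 and 148 CPM for C1qb. Cells carry the numbers in their labels. The Ibsp-high cells are 1 to 12, the Otos-high cells are 23 to 29, 31 and 32, and the C1qb-high cells are 43 to 46, so the classes run with this numbering, and any effect of the order of handling cannot be told apart from class. A cell was said to hold a gene at 10 CPM or more and at 2% or more of that gene's mean over all cells. This limit passed 10 CPM only for Cxcl12, at 11.9 CPM, and Tnfrsf11b, at 10.7 CPM.

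The markers of each class were checked. Leaving out the gene that defined each class, at least 50% of Ibsp-high cells held each of the other 8 of 8 osteoblast markers, and likewise 7 of 7 cochlear fibrocyte markers in Otos-high cells and 6 of 6 macrophage markers in C1qb-high cells. Of the 8 fibrocyte markers, Otos included, 4 were held by at least 50% of Ibsp-high cells and 3 by as many of the rest. Their summed level reached 36238 CPM in Ibsp-high cells and 118037 CPM in the rest, against 32434 to 169514 CPM in Otos-high cells. In cell 46 Ptprc, which encodes the leukocyte surface protein CD45, was at 0 CPM, against 144 to 530 CPM in the other C1qb-high cells, while its summed macrophage markers, C1qb included, were the highest at 26651 CPM. Cell 43 also held 3 of 4 glial markers, with a summed level of 10584 CPM. Of 8 osteoclast markers, 0 were held by any C1qb-high cell, and 6 of the 8 were at 0 CPM in all 4. In the other classes 5, 6 and 4 of the 8 were at 0 CPM in all Ibsp-high, Otos-high and rest cells. Neutrophil markers were at 0 CPM in all cells. Depth ran from 2522853 to 10350249 reads per cell, with 3351 to 7143 genes at 1 CPM or more.

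These promoters are shown because they belong to the most widely held ligand gene and the least held one. Each is the 250 bases before the gene's start in the RefSeq annotation of GRCm38.p6, written 5′ to 3′ on the gene's strand, with capitals for the matches described after them. Cxcl12 lies at chr6:117168285-117168534 (plus strand) and Tnfsf11 at chr14:78308044-78308293 (minus strand).
Cxcl12 promoter: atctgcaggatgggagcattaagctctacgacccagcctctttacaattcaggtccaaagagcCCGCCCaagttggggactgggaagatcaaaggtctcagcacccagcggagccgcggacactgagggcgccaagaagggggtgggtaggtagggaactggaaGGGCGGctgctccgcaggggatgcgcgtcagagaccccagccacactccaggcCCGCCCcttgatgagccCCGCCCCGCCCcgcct
Tnfsf11 promoter: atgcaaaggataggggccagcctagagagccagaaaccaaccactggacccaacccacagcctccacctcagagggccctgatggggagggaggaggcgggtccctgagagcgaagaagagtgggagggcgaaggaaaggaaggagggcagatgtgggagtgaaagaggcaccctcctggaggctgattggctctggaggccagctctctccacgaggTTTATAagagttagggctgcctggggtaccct
The letters searched, on both strands, were TATAAA for a TATA box, GGGCGG for a GC box, TGTGGT for a RUNX site and GAGGAA for an ETS core. The Cxcl12 window held 5 GC box matches, of which the last pair overlap, 0 TATA box matches and 14 CpG dinucleotides. The Tnfsf11 window held 1 TATA box match, written TTTATA, 0 GC box matches and 4 CpG dinucleotides. Of 27025 promoters of this length, 32.9% held the GC box letters, 12.97% the TATA box letters, 14.2% the RUNX letters and 23.1% the ETS letters, and the median CpG count was 6. RefSeq promoters were found for 5 of the 8 genes, and the RUNX and ETS letters were in 0 of these 5 windows. These matches describe the letters and not binding.

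Csf1 (GRCm38 chromosome 3, 107741048 to 107760469, minus strand) was held by few cells and by no single class. It was held by 4 of 12 Ibsp-high cells (33.3%, exact 95% interval 9.92% to 65.1%), 1 of 9 Otos-high cells (11.1%, 0.281% to 48.2%), 0 of 4 C1qb-high cells (which allows a share of up to 75%) and 7 of 21 rest cells (33.3%, 14.6% to 57.0%). The intervals with 2 bounds, here and below, are Clopper-Pearson intervals and cover counting error only. The limits beside a count of 0 are 3 divided by the number of cells; the exact upper bounds are 60.2% for 4 cells, 33.6% for 9, 26.5% for 12 and 16.1% for 21. In the Ibsp-high cells that held it, cells 9, 11, 10 and 8, Csf1 was at 70.8, 108, 159 and 329 CPM, and the other 8 reached at most 5.20 CPM. The Otos-high cell that held it, cell 31, was at 95.6 CPM and the other 8 at no more than 0.194 CPM. In the rest, cells 22, 40, 42, 17, 30, 33 and 14 were at 59.3, 75.3, 92.4, 118, 121, 168 and 178 CPM, and the other 14 at no more than 0.294 CPM. Cells thus either had clear Csf1 reads or almost none, and the holding cells of these classes covered the same range of levels apart from cell 8.

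Csf1 averaged 56.0 ± 101 CPM in Ibsp-high cells (SD, n = 12 cells) and 38.7 ± 61.0 CPM in the rest (SD, n = 21 cells). On the log2(CPM + 1) scale the Ibsp-high mean minus the rest mean was 0.30, against a pooled SD over cells of 3.29. Leaving out any 1 of cells 8, 9, 10 or 11 turned its sign, to between -0.22 and -0.02. Otos-high cells averaged 10.7 ± 31.9 CPM, a difference of -1.59 from the rest. Neither difference passed the size limit of 2 log2 units used here, which 10.9% of all 11447 genes compared passed in either direction for Ibsp-high cells and 9.95% for Otos-high cells. The Otos-high difference did pass it with a pseudocount of 0.1 (-2.64), with class limits of 5000 and 2000 CPM (-2.51) and without cell 31 (-2.31).

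**Figure D1:**
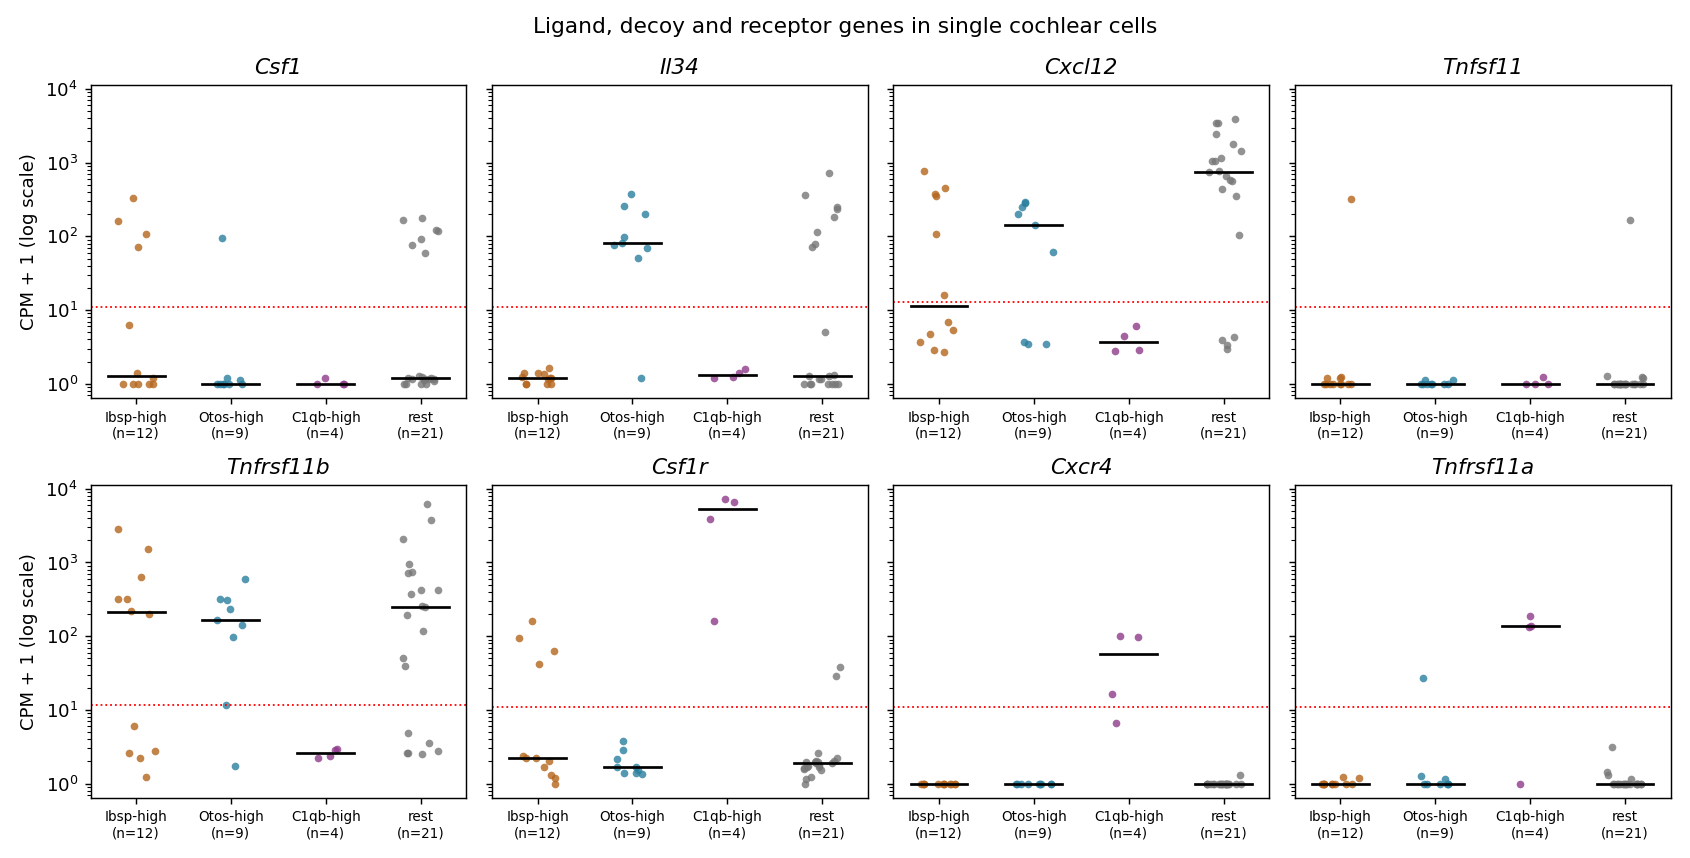
Each panel plots 1 gene, with CPM + 1 on a log axis and every cell as a point, for the Ibsp-high (n = 12), Otos-high (n = 9), C1qb-high (n = 4) and rest (n = 21) cells. The black line is the class median and the red dotted line the limit above which a cell holds the gene. Il34 lies above the limit in 8 of 9 Otos-high and 0 of 12 Ibsp-high cells, and Cxcr4 in 3 C1qb-high cells only.

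Il34 (chromosome 8, 110741829 to 110805924, minus strand), the second ligand of the CSF1 receptor, was a gene of Otos-high cells and of some rest cells. It was held by 0 of 12 Ibsp-high cells (which allows a share of up to 25%), 8 of 9 Otos-high cells (88.9%, 51.8% to 99.7%), 0 of 4 C1qb-high cells (up to 75%) and 8 of 21 rest cells (38.1%, 18.1% to 61.6%). In the Otos-high cells Il34 ran from 0.194 CPM in cell 28, through a median of 80.0 CPM, to 376 CPM in cell 24, and the lowest holding cell was cell 27 at 49.6 CPM. In the rest it ran from 0 to 731 CPM with a median of 0.289 CPM. The holding cells there were cells 30, 40, 39, 37, 21, 14, 36 and 18, at 71.2, 79.1, 115, 181, 237, 249.9, 367 and 731 CPM. The highest Ibsp-high cell had 0.645 CPM, below every Otos-high cell except cell 28, which lay within the Ibsp-high range. Il34 shares 22 of its 1959 exonic bases with Gm15894 on the other strand, which reached 104.7 CPM in cell 29, a cell with 200 CPM of Il34, and was below 1 CPM elsewhere.

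Il34 averaged 0.217 ± 0.204 CPM in Ibsp-high cells (n = 12 cells), 134 ± 119.6 CPM in Otos-high cells (n = 9 cells) and 97.0 ± 180.0 CPM in the rest (n = 21 cells; SDs). The Ibsp-high mean log2 level lay 2.81 below the rest, a difference of -2.81 against a pooled SD of 2.995. Of all 11447 genes compared, 4.58% were lower by at least 2 in Ibsp-high cells than in the rest. The Otos-high mean log2 level lay 3.09 above the rest (pooled SD 3.40), and 5.75% of genes were higher by at least 2 in that comparison. Both differences were below 2 with a pseudocount of 10, at -1.66 and 1.61.

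Csf1 and Il34 were set side by side in each cell. Of 46 cells, 4 held both, 8 held Csf1 without Il34, 12 held Il34 without Csf1, and 22 held neither. The cells with both were cell 31 of the Otos-high class and cells 14, 30 and 40 of the rest. Per kilobase of the longest coding transcript, Il34 was higher than Csf1 in each of them: 54.9 and 22.9 CPM per kb in cell 31, 139 and 42.6 in cell 14, 39.6 and 29.01 in cell 30, and 44.1 and 18.02 in cell 40. At least 1 of these ligands was held by 4 of 12 Ibsp-high, 8 of 9 Otos-high, 0 of 4 C1qb-high and 12 of 21 rest cells.

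**Figure D2:**
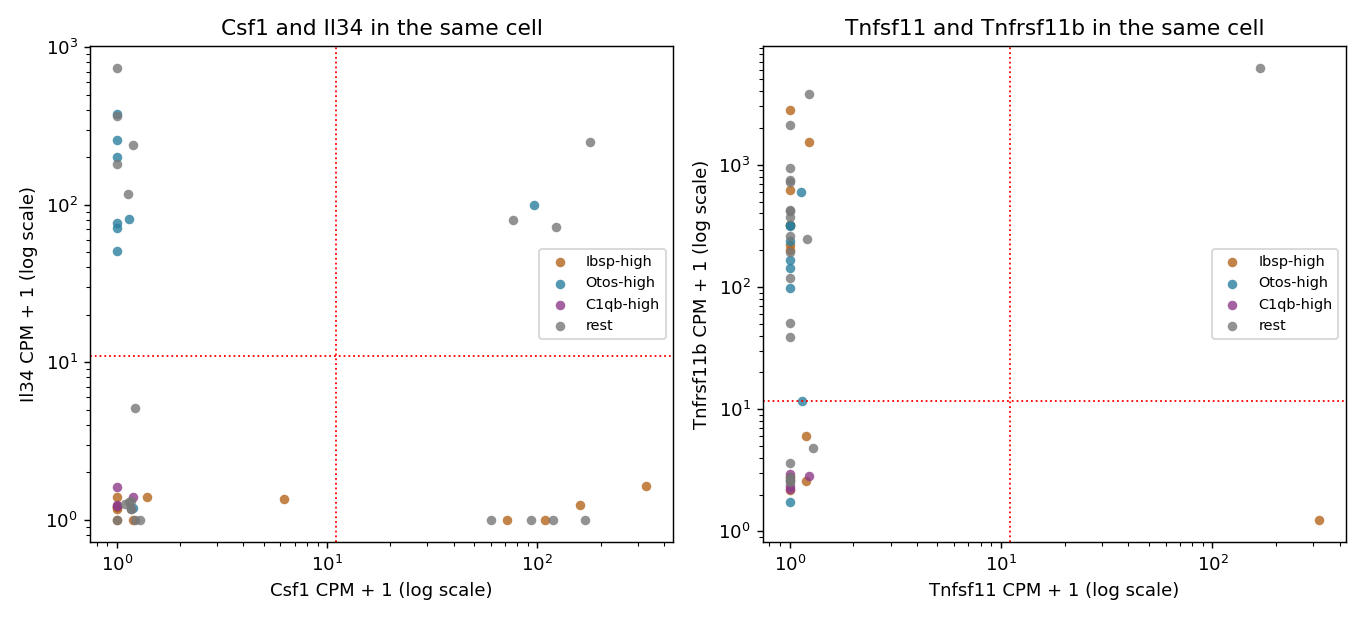
Each point is 1 cell, coloured by class, with CPM + 1 of Csf1 against Il34 in one panel and of Tnfsf11 against Tnfrsf11b in the other, on log axes. In the Csf1 panel 4 cells lie high on both axes, and in the Tnfsf11 panel 1 cell does, cell 22.

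Cxcl12 (chromosome 6, 117168535 to 117181367, plus strand) was the most widely held ligand, and its highest levels were in the rest. It was held by 6 of 12 Ibsp-high cells (50%, 21.1% to 78.9%), 6 of 9 Otos-high cells (66.7%, 29.9% to 92.5%), 0 of 4 C1qb-high cells (up to 75%) and 17 of 21 rest cells (81.0%, 58.1% to 94.6%). Among Ibsp-high cells it ran from 1.71 CPM in cell 6, through a median of 10.4 CPM, to 778 CPM in cell 5. Among Otos-high cells it ran from 2.43 CPM in cell 24, through a median of 143 CPM, to 294 CPM in cell 29. The 4 C1qb-high cells had 1.82, 1.86, 3.46 and 5.04 CPM. In the rest it ran from 2.00 CPM in cell 41, through a median of 745 CPM, to 3890.3 CPM in cell 39. The classes overlapped, but 10 rest cells lay above the highest cell of every other class.

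All 46 cells had some Cxcl12 reads, and the cells below the limit had at most 5.80 CPM, so a low level of this transcript's reads was present in every library, those of C1qb-high cells included. Mean levels were 175 ± 255 CPM in Ibsp-high cells, 138 ± 124 CPM in Otos-high cells and 1142 ± 1203 CPM in the rest (SDs over 12, 9 and 21 cells). On the log2 scale Ibsp-high cells differed from the rest by -3.53 (pooled SD 3.40), in a comparison where 4.58% of genes were lower by at least 2. Otos-high cells differed from the rest by -2.79 (pooled SD 3.33), where 4.2% of genes were lower by at least 2. Without rest cells 20, 21, 22, 38, 40 and 42, which held 3 or more osteoblast markers or any macrophage marker, these differences were -4.17 and -3.43.

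Cxcl12 was found together with Il34 in 14 cells, without it in 15, and Il34 was without Cxcl12 in 2, the Otos-high cells 23 and 24. All 8 rest cells that held Il34 held Cxcl12. In the Ibsp-high class, cells 10 and 9 held Csf1 and Cxcl12, and cells 11 and 8 held Csf1 with Cxcl12 at 4.39 and 5.80 CPM. Dio2, the gene of the allele, was held by 9 of the 17 rest cells with Cxcl12 and by 1 of the 4 without. Across all cells Il34 was held with Dio2 in 11 cells and without it in 5. Dio2 was held without Il34 in 12 cells, 8 of them Ibsp-high, and 18 cells held neither. Cxcl12 was held with Dio2 in 16 of all cells and without it in 13, Tnfrsf11b in 17 and 12, and Csf1 in 8 and 4. The 4 C1qb-high cells had at most 0.465 CPM of Dio2.

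Tnfsf11 (chromosome 14, 78277445 to 78308043, minus strand), which encodes RANKL, was held by 2 of 46 cells (4.35%, 0.531% to 14.8%). Cell 10, an Ibsp-high cell, had 318 CPM from 1301 reads, and cell 22, a rest cell, had 167 CPM from 975 reads. The other 44 cells had at most 0.294 CPM, and 35 cells had no read. It was held by 1 of 12 Ibsp-high cells (8.33%, 0.211% to 38.5%), 0 of 9 Otos-high cells (up to 33.3%), 0 of 4 C1qb-high cells (up to 75%) and 1 of 21 rest cells (4.76%, 0.120% to 23.8%). Cell 22 also held 5 of 9 osteoblast markers, had 148 CPM of C1qb and 99.5 CPM of C1qc, and held no other macrophage marker; whether it was 1 cell was not tested. The Ibsp-high minus rest difference of 0.37 became -0.32 without cell 10, so it rests on that cell.

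Tnfrsf11b (chromosome 15, 54250619 to 54278484, minus strand), which encodes osteoprotegerin, was held by 29 of 46 cells. These were 7 of 12 Ibsp-high cells (58.3%, 27.7% to 84.8%), 7 of 9 Otos-high cells (77.8%, 39.99% to 97.2%), 0 of 4 C1qb-high cells (up to 75%) and 15 of 21 rest cells (71.4%, 47.8% to 88.7%). In the Ibsp-high class it ran from 0.245 CPM in cell 10, through a median of 209 CPM, to 2827 CPM in cell 1. In the Otos-high class it ran from 0.734 CPM in cell 31, through a median of 166 CPM, to 595 CPM in cell 32. The C1qb-high cells had 1.21 to 1.94 CPM. In the rest it ran from 1.53 CPM in cell 18, through a median of 245 CPM, to 6139 CPM in cell 22. The 3 classes that held it overlapped almost fully. All 4 C1qb-high cells lay within the range of the cells of these classes that did not hold it, 0.245 to 10.6 CPM.

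Mean Tnfrsf11b was 505 ± 852 CPM in Ibsp-high cells, 208 ± 185 CPM in Otos-high cells and 789.9 ± 1518 CPM in the rest (SDs over 12, 9 and 21 cells). The mean log2 difference from the rest was -0.88 for Ibsp-high cells and -0.16 for Otos-high cells, against pooled SDs of 3.89 and 3.48. The sign of the Otos-high difference turned when any 1 of cells 17, 20, 22, 23 or 31 was left out, with values up to 0.56. The Ibsp-high difference was -1.39 without cell 1, and without any 1 of cells 2, 3, 6, 10 or 12 it lay between -0.58 and -0.38. Neither passed the size limit. Cell 23, at 10.6 CPM, lay just under the limit for holding the gene.

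The ligand RANKL and its decoy met in 1 cell. Of 46 cells, cell 22 held both Tnfsf11 and Tnfrsf11b, cell 10 held Tnfsf11 without Tnfrsf11b, 28 cells held Tnfrsf11b without Tnfsf11, and 16 held neither. In cell 22 the decoy stood at 2179 CPM per kb and the ligand at 74.6 CPM per kb, a ratio of 29.2. Cell 10 had 142 CPM per kb of Tnfsf11 and 1 read of Tnfrsf11b. The only Ibsp-high cell that held Tnfsf11 was thus the Ibsp-high cell with the lowest Tnfrsf11b, while Ibsp-high cells 2, 7 and 12 had 1 read of Tnfsf11 each.

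**Figure D3:**
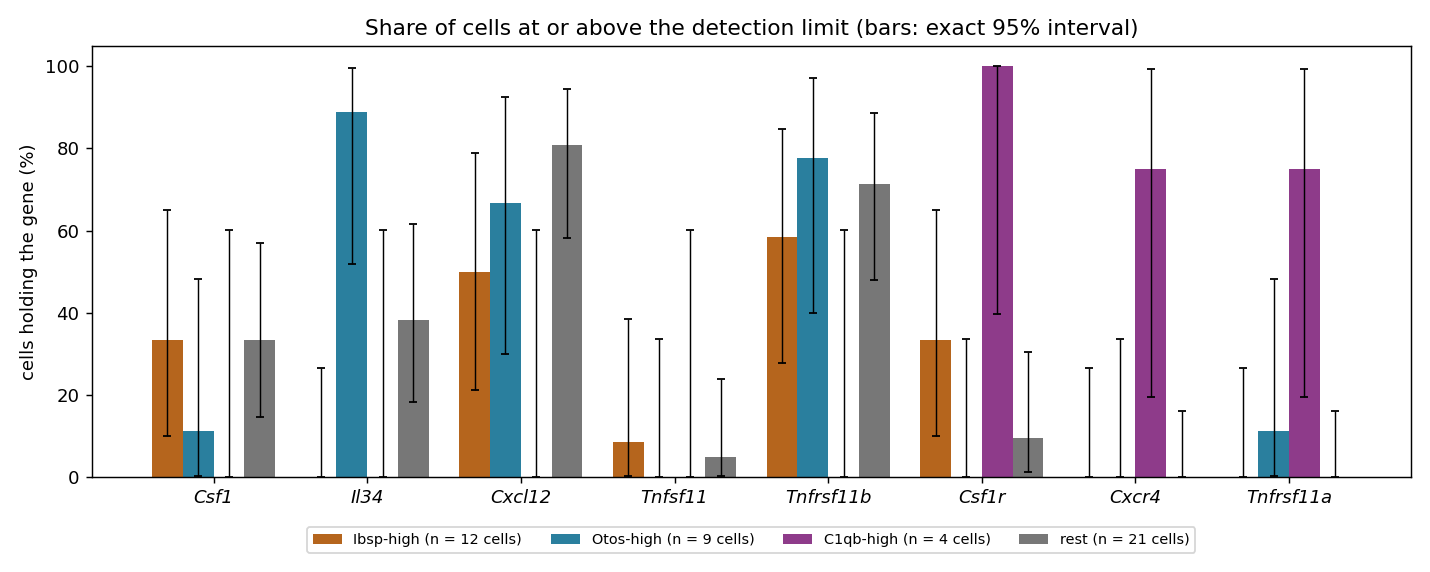
Bars give the percent of cells of each class that hold each gene, from 0 to 100, with exact 95% binomial intervals that cover counting error only. The C1qb-high bars are at 0 for all 5 ligand and decoy genes and at 75 to 100 for the 3 receptors.

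Csf1r, on chromosome 18 and transcribed from the plus strand, encodes the receptor of CSF1 and IL-34 and was highest in C1qb-high cells. Cells 46, 43, 45 and 44 had 160, 3870.4, 6619 and 7289 CPM, so all 4 held it (100%, 39.8% to 100%). It was held by 4 of 12 Ibsp-high cells, cells 2, 9, 10 and 12, at 40.4, 61.4, 93.7 and 160 CPM, by 0 of 9 Otos-high cells (up to 33.3%), and by 2 of 21 rest cells, cells 40 and 34, at 27.8 and 36.7 CPM. Cells 43 to 45 lay more than 10 times above every other cell, while cell 46 lay at the level of cell 12.

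The Csf1r gene overlaps another gene. Hmgxb3, on the minus strand, shares 873 of the 5774 exonic bases of Csf1r. Whether reads were assigned by strand is not given in the sources used here, and reads of the shared bases cannot then be told apart. All 6 cells that held Csf1r outside the C1qb-high class held Hmgxb3, at 26.5 to 364 CPM, and so did cell 46, at 107 CPM. In cells 43, 44 and 45 Hmgxb3 was at 0.233, 0.194 and 0 CPM. Among the other 4 cells that held Hmgxb3, cell 22 had 191 CPM of it with 1.03 CPM of Csf1r, and cells 23, 25 and 30 had 12.2 to 13.4 CPM. Among cells that did not hold Hmgxb3, Csf1r was held by 0 of 8 Ibsp-high, 0 of 7 Otos-high, 3 of 3 C1qb-high and 0 of 17 rest cells. The 6 macrophage markers other than C1qb summed to between 7819.9 and 17017 CPM in C1qb-high cells, and to between 0.799 and 66.9 CPM in the 6 cells outside the class.

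Csf1r averaged 4485 ± 3240.4 CPM in C1qb-high cells (n = 4 cells), 30.1 ± 51.2 CPM in Ibsp-high cells, 0.984 ± 0.823 CPM in Otos-high cells and 3.77 ± 9.58 CPM in the rest (SDs). The mean log2 level of C1qb-high cells lay 9.66 above all other cells (pooled SD 1.93), and 11.69 above them without the cells that hold Hmgxb3. The 11447 genes compared were those at 1 CPM or more in 5 cells or more. Of them 12.4% were higher by at least 2 in C1qb-high cells and 14.2% lower, around a median of -0.47. Genes at that level in the 4 C1qb-high cells alone were left out, such as Tyrobp, with a difference of 9.03, so this share does not cover them.

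**Figure D4:**
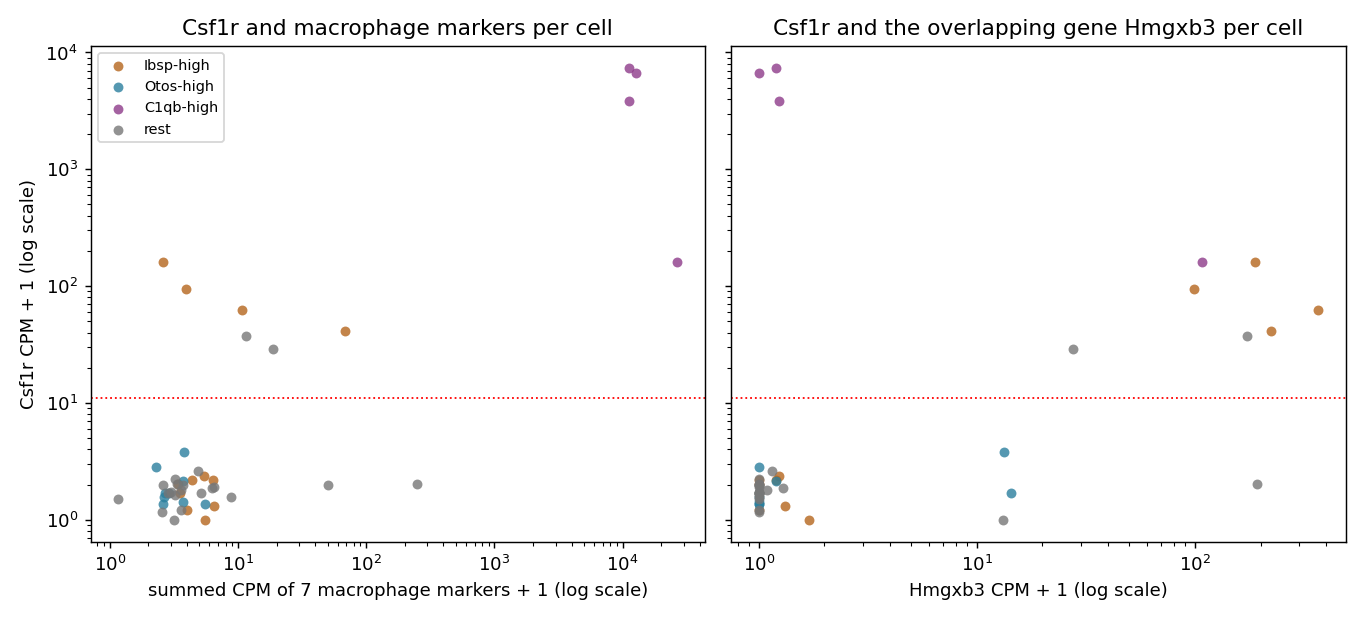
Csf1r CPM + 1 of each cell is plotted against the summed CPM + 1 of 7 macrophage markers, C1qb included, and against Hmgxb3 CPM + 1, on log axes, with colours for the classes and a red dotted line at the limit for holding Csf1r. Cells 43 to 45 lie high on Csf1r and low on Hmgxb3, and the other 7 cells above the line lie at 26.5 CPM of Hmgxb3 or more.

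Cxcr4 (chromosome 1, 128588199 to 128592293, minus strand), which encodes the CXCL12 receptor, was seen almost solely in C1qb-high cells. Cells 45, 44, 43 and 46 had 5.66, 15.3, 98.0 and 100.4 CPM, so 3 of 4 held it (75%, 19.4% to 99.4%). Of the other 42 cells, 1 rest cell had 1 read, and the 12 Ibsp-high and 9 Otos-high cells had none. The lowest C1qb-high cell, at 5.66 CPM, lay above that rest cell, at 0.305 CPM. The share of all genes with such a separation was not computed. Of the genes that passed the filter on low values, which Cxcr4 did not, 12.4% were higher by at least 2 in C1qb-high cells. The mean was 54.8 ± 51.4 CPM in C1qb-high cells (SD, n = 4 cells), and the mean log2 level lay 5.005 above all other cells.

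Tnfrsf11a (chromosome 1, 105780718 to 105847981, plus strand), which encodes RANK, was held by 3 of 4 C1qb-high cells. Cells 43, 46, 45 and 44 had 0, 133, 136 and 187 CPM. The Otos-high cell 29 had 26.2 CPM, and 1 rest cell, cell 41, had 2.09 CPM, below the limit. It was held by 0 of 12 Ibsp-high cells (up to 25%) and 0 of 21 rest cells (up to 14.3%). The C1qb-high mean was 114 ± 80.0 CPM (SD, n = 4 cells), and its log2 level lay 5.22 above all other cells, or 7.03 without cell 43. Cell 43, the C1qb-high cell at 0, held 3 of 4 glial markers, and cells 44, 45 and 46 held 2, 1 and 1 of them. Any link between these markers and Tnfrsf11a was not tested.

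All 3 receptors were held by cells 44 and 46, while cell 43 lacked Tnfrsf11a and cell 45 had Cxcr4 below the limit. Cell 46 had 160 CPM of Csf1r beside 107 CPM of the overlapping Hmgxb3, and the part of Hmgxb3 reads in it was not tested. On the per-kilobase scale the C1qb-high medians were 1116 CPM per kb for Csf1r, 31.4 for Cxcr4 and 26.7 for Tnfrsf11a. None of the 4 C1qb-high cells held any of the 5 ligand and decoy genes. The mean log2 differences of C1qb-high cells from all other cells were -2.05 for Csf1, -2.50 for Il34, -4.86 for Cxcl12, -5.09 for Tnfrsf11b and -0.35 for Tnfsf11. Of the ligand and decoy genes, 8 of 46 cells held 0, 9 held 1, 11 held 2, 15 held 3 and 3 held more, and 6 of 9 Otos-high cells held 3.

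**Figure D5:**
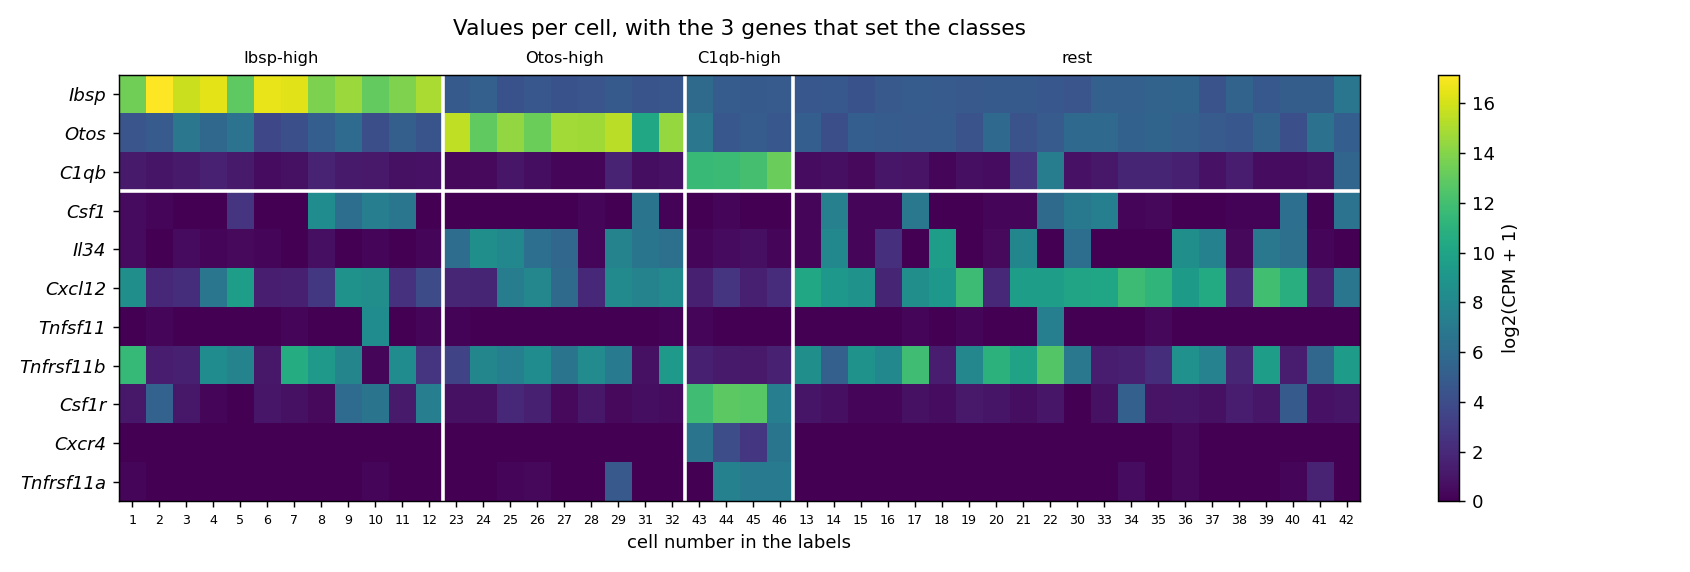
Colour gives log2(CPM + 1) of the 8 genes in each of the 46 cells, with cells ordered by class. The 4 C1qb-high cells are dark for the ligand and decoy genes and bright for Csf1r, and Tnfsf11 is bright in cells 10 and 22 alone.

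The wider pathways were described from lists of 78 genes in all. Of 12 genes of CSF1 receptor signalling and the macrophage lineage, 12 were held by at least 50% of C1qb-high cells and 0 by as many of any other class. Their medians in C1qb-high cells included 2943 CPM for Cx3cr1, the receptor of fractalkine, 542 CPM for Tyrobp and 488 CPM for Fcer1g, adaptors of immune receptors, and 482 CPM for the transcription factor gene Irf8. These genes mark the class itself, so their count is a description of it. How many of all genes were held so was not computed.

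Of 4 further receptors for the ligands, Ackr3, the scavenging receptor of CXCL12, was held by 4 of 12 Ibsp-high, 6 of 9 Otos-high, 0 of 4 C1qb-high and 15 of 21 rest cells. Its mean log2 difference between Ibsp-high cells and the rest was -3.52. Lgr4, which in mice also binds RANKL, was held by 10 of 12 Ibsp-high, 2 of 9 Otos-high, 0 of 4 C1qb-high and 3 of 21 rest cells, and its Ibsp-high minus rest difference was 4.70. Sdc1, a cell surface proteoglycan that binds IL-34, was held by 7 cells in all. Ptprz1, which encodes another receptor of IL-34, was held by 1, a rest cell at 12.4 CPM.

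Of 14 genes of RANK signalling and osteoclasts, 4 were held by at least 50% of C1qb-high cells. These were Traf6, the adaptor of RANK, in 4 of 4 (median 99.5 CPM), Nfatc1, the transcription factor that RANK switches on, in 3 of 4 (median 141 CPM), and Tcirg1 and Clcn7, proton pump and chloride transporter genes also used outside osteoclasts, in 4 and 3 of 4. Of the 14 genes, 3 were held by at least 50% of Ibsp-high cells, and 1 each by as many Otos-high and rest cells. The share of all genes held by at least 50% of each class was not computed, so these counts are a description only. Tcirg1 and Clcn7 were each held by 7 of 12 Ibsp-high cells, and by 8 and 6 of 21 rest cells. Of the genes of mature osteoclasts, Mmp9, Ocstamp, Oscar and Calcr were at 0 CPM in all 46 cells. Acp5 was at 0 CPM in all 4 C1qb-high cells and was held by 1 Ibsp-high cell, at 80.8 CPM. Ctsk, a collagen-degrading protease gene best known from osteoclasts, was held by 8 of 12 Ibsp-high, 6 of 9 Otos-high, 0 of 4 C1qb-high and 13 of 21 rest cells.

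Of 9 genes through which osteoblast-lineage cells are told to make RANKL, 6 passed the filter on low values. Of these 6, 2 were higher by at least 2 in Ibsp-high cells than in the rest and 1 was lower. Of all 11447 genes that passed, 6.31% were higher. Pth1r, the parathyroid hormone receptor, was held by 12 of 12 Ibsp-high cells and 10 of 21 rest cells, with medians of 1378 and 2.14 CPM and a difference of 6.31. Vdr, the vitamin D receptor, was held by 7 of 12 Ibsp-high and 2 of 21 rest cells, with a difference of 4.21. Il11ra1, the interleukin-11 receptor, was held by 4 of 12 Ibsp-high and 20 of 21 rest cells, with a difference of -5.04. Il6st, the shared receptor subunit of interleukin-6 family cytokines, and Tnfrsf1a, a receptor of tumour necrosis factor, were each held by 7 of 12 Ibsp-high cells, and by 10 and 14 of 21 rest cells. Of the 12 Ibsp-high cells, all with Pth1r, 1 held Tnfsf11.

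Of 12 other osteoblast signals to osteoclasts, Wnt5a, a Wnt ligand that raises RANK in osteoclast precursors, was held by 7 of 12 Ibsp-high, 9 of 9 Otos-high, 1 of 4 C1qb-high and 20 of 21 rest cells, with an Ibsp-high minus rest difference of -3.04. Ephb4, a receptor of ephrins, was held by 17 cells, 10 of them in the rest. Ccl2, a chemokine for monocytes, was held by 4 of 4 C1qb-high cells, with a median of 831 CPM, and by 1 rest cell. Of the further chemokine genes, Ccl9 was held by 2 C1qb-high cells, and Ccl7 by 1 C1qb-high and 3 rest cells. Sost, which encodes sclerostin, had no read in any cell.

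Of 12 other stromal signals to macrophages, Cx3cl1, which encodes fractalkine, the ligand of the receptor gene Cx3cr1 named above, was held by 2 of 12 Ibsp-high, 5 of 9 Otos-high, 0 of 4 C1qb-high and 11 of 21 rest cells. Cd47, which protects cells from engulfment by macrophages, was held by 38 of 46 cells. Gas6, a ligand of receptors that macrophages use to clear dead cells, was held by 4 of 4 C1qb-high cells (median 517 CPM), 1 of 12 Ibsp-high cells and 3 rest cells. Pros1, which encodes a related ligand, was held by 8 of 12 Ibsp-high and 8 of 21 rest cells. Il6, Csf2, Csf3 and C3 had no read in any cell.

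The next list has 8 genes that mark CXCL12-rich stromal cells of mouse bone marrow. Of these, 3 were lower by at least 2 in Ibsp-high cells than in the rest and 0 higher. Of the 11447 genes compared, 4.58% were lower and 6.31% higher. Vcam1, an adhesion molecule, was held by 0 of 12 Ibsp-high, 7 of 9 Otos-high, 0 of 4 C1qb-high and 16 of 21 rest cells, with a difference of -5.89. Pdgfrb, a growth factor receptor of mesenchymal cells, was held by 5 of 12 Ibsp-high, 8 of 9 Otos-high and 15 of 21 rest cells (difference -2.47). The transcription factor genes Foxc1 and Ebf1 were wide, in 35 and 39 of 46 cells. Kitl, which encodes stem cell factor, was held by 7 cells. The list's median difference was -1.28 for Ibsp-high cells minus the rest, against 0.09 over the 11447 genes compared.

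A further list had 8 proteoglycan genes with Dpp4, which encodes a protease that cuts CXCL12. Of these, 2 were higher by at least 2 in Ibsp-high cells than in the rest, as were 6.31% of the 11447 genes compared. Gpc1, a cell surface heparan sulfate proteoglycan, was held by 12 of 12 Ibsp-high cells and 7 of 21 rest cells, with medians of 1297 and 1.83 CPM and a difference of 6.64. Sdc4 was held by 10 of 12 and 10 of 21 of these cells (difference 2.56). Sdc2, Bgn and Dcn were held by 36, 34 and 36 of 46 cells.

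Genes whose CPM ran most like each member's over the 46 cells were found by Spearman's rho, as a description over cells of 1 sample that share depth and class. For Csf1 they were Col4a1 (0.63), Tsg101 (0.54) and Ccdc91 (0.53), and for Il34 Rprm (0.59), Sptssa (0.59) and Pgm5 (0.58). For Cxcl12 they were Atp1a4 (0.68), held by 3 cells, Cd302 (0.67) and Plpp3 (0.67). For Csf1r they were Abcc5, Arpc1b and Atf3 (0.57 each), and for Tnfrsf11b they included Tm7sf3 (0.53) and Sdhaf3 (0.53). Cxcr4, Tnfsf11 and Tnfrsf11a were held by too few cells for this.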

How the data were processed

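The deposited values are CPM per the file headers, made by the authors from single-cell libraries of 46 cells. The authors' tools were bcl2fastq 2 and STAR 2.7.3a and their genome build GRCm38 or mm10, per the submitters' processing notes. How reads were counted, with what annotation and whether by strand, is not given in the sources used here. Each cell's values above 0 were whole multiples of 1 step (100% within 0.01 read), which gave whole reads, 2522853 for the shallowest cell. The kits add no molecular identifiers. The intervals are for shares of cells and cover counting error only. No count test was run, since 46 cells without named animals are 1 sample. Nor was a doublet caller, because cells were picked singly.

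Shares used a limit of 10 CPM and 2% of the mean. Differences are of mean log2(CPM + 1), over 11447 genes at 1 CPM or more in 5 cells or more; 6 of the 8 members passed this filter (not Cxcr4 and Tnfsf11). This scale understates differences of low genes. The calculation was tested on simulated data. The members in full, up to 5 genes per list by highest class median, and 3 genes most like each member held by 5 or more cells are named, apart from 2 whose results are not reported here; Acp5, Mmp9, Ocstamp, Oscar, Calcr, Sost, Il6, Csf2, Csf3, C3, Hmgxb3 and Gm15894 were named after their values were seen. The members and lists were chosen with earlier results of these data known. Overlaps and lengths came from the GENCODE annotation of GRCm38. Python 3.11.15, numpy 2.4.6, pandas 2.3.3 and scipy 1.17.1 were used. Alternatives were other pseudocounts, detection and class limits, thinned reads, rescaled CPM and each cell left out.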

Additional observations from a re-analysis of the deposited data

Results flagged for a closer look

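Among 8 groupings of 4 to 10 cells with any cell that held the gene, 5 had 1 cell far from the others of its class. Chance flags about 1 in 20 groups of normally spread values, and genes that are on or off in single cells are not spread so. Csf1 was at 95.6 CPM in cell 31, far above the other Otos-high cells. Il34 was at 0.194 CPM in cell 28, far below the other Otos-high cells on the log scale. Tnfrsf11a was at 26.2 CPM in cell 29, the only Otos-high cell with more than 1 CPM. Csf1r was at 160 CPM in cell 46, the lowest of the C1qb-high cells, with a gap of 0.834 of the range against a critical value of 0.829, and this cell had 107 CPM of the overlapping gene Hmgxb3. Tnfrsf11a was at 0 CPM in cell 43, the lowest of the C1qb-high cells. The part of Hmgxb3 reads in these values was not tested.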

How the results depend on the processing

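Of the 13 differences recomputed under the alternatives, those past the size limit kept their sign; the C1qb-high differences of the ligand and decoy genes and those of the list genes were not recomputed. The C1qb-high minus other differences moved most: for Csf1r to 7.40 with a pseudocount of 10 and 6.68 with class limits of 100 CPM; for Cxcr4 to 8.21 and 2.22 with pseudocounts of 0.1 and 10, 3.19 with class limits of 100 CPM and 4.33 with values below the detection limit set to 0; for Tnfrsf11a to 7.32 and 2.94 with pseudocounts of 0.1 and 10. Leaving out each cell in turn gave 4.45 to 5.76 for Cxcr4 and 4.51 to 7.03 for Tnfrsf11a. Among uncalled differences, Tnfrsf11b turned sign for Ibsp-high cells (0.24) and Otos-high cells (up to 0.83) with other class limits or, for Otos-high cells, a smaller rest. At a limit of 1 CPM, Cxcl12 was held by 100% of all 4 classes, Cxcr4 by 100% of C1qb-high cells, Csf1r by 66.7% of Ibsp-high cells, and Tnfrsf11b by 91.7%, 100% and 100% of Ibsp-high, C1qb-high and rest cells. At a limit of 100 CPM, Otos-high shares were 0% for Csf1 and Tnfrsf11a and 33.3% for Il34, Csf1r shares were 8.33% in Ibsp-high cells and 0% in the rest, and 1 cell held both Csf1 and Il34. Class limits of 100 CPM put 2 cells, 3 and 43, past 2 limits and moved cell 22 into the C1qb-high class. Csf1, Cxcl12, Tnfsf11 and Tnfrsf11b were then each held by 1 of 4 C1qb-high cells, Il34 by 0 and Csf1r by 3. Rest shares for Tnfsf11 were 0% with those limits and without the cells that held 3 or more osteoblast markers or any macrophage marker. Without cells that hold Hmgxb3, the Csf1r difference was 11.69 and its shares were 0% in Ibsp-high and rest cells. Both leave-out sets were chosen after seeing the data. The cause of these moves was not tested. Thinned reads and rescaled CPM moved no difference beyond 1 SD.

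Only 4 C1qb-high cells, no named animals, hand-picked fluorescent cells and a class order that follows the numbering limit every value. Shares hold for these picked cells, not for the cochlea. No paired analysis was possible because the labels give 1 group.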
